A study of Mus musculus with 6 samples.

Results

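The genes examined here carry citrate and the 2-carbon unit of acetyl-CoA between the mitochondrion and the cytosol. They are *Slc25a1*, *Cs*, *Acly*, *Me1*, *Mdh1*, *Pcx*, *Acss1* and *Acss2*, 8 of the 54532 genes in the deposited table, and were chosen by name. In mitochondria, pyruvate carboxylase (encoded by *Pcx*) makes oxaloacetate, and citrate synthase (*Cs*) joins it with acetyl-CoA to give citrate. The citrate carrier (CIC, encoded by *Slc25a1*) exports citrate in exchange for malate, and ATP citrate lyase (*Acly*) cleaves it in the cytosol into acetyl-CoA, the building block of fatty acids and cholesterol, and oxaloacetate. Cytosolic malate dehydrogenase (*Mdh1*) and malic enzyme (*Me1*) carry that oxaloacetate on to malate and then pyruvate, the last step giving NADPH, while the acetyl-CoA synthetases make acetyl-CoA from acetate in the cytosol and nucleus (*Acss2*) or in mitochondria (*Acss1*). In alveolar type 2 cells, this supply of acetyl-CoA feeds the lipid of surfactant.

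RNA-seq counts were available for MLE12, an immortalized mouse cell line from lung alveolar epithelium that the labels give as strain C57BL/6J. The Ctrl shRNA group (3 samples) was infected with empty lentiviral vectors, and the Idh3α shRNA + Slc25a1 shRNA group (3 samples, called knockdown below) with an Idh3α-silencing and an Slc25a1-silencing lentivirus at the same time. Each lentivirus was given at an MOI, the number of infectious particles per cell, of 50. In both groups the infection lasted 16 h, and after a change of medium the cells were kept for 80 h more. The knockdown cells received 2 silencing viruses and so, as the protocol gives it, the larger total dose, the effect of which cannot be told apart from the loss of the mRNAs. The 2 genes were silenced together, so the effect of each cannot be told apart either. The labels do not say whether the 3 samples of a group came from separate cultures, so the p-values measure the spread between these samples, which may be technical. In bulk RNA of this kind, fewer cells making an mRNA and less mRNA per cell cannot be told apart.

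The libraries held 27273502 to 28535653 counts. Ctrl shRNA replicate 2 stood apart. In it, 16681 genes had at least 1 count, against 19902 to 23147, and mitochondrially encoded genes took 6.49% of the counts, against 1.57% to 1.80%. Its TMM factor, which edgeR uses to rescale library sizes, was 0.711, against 1.05 to 1.09 in the other 5 libraries. The comparisons are therefore given with and without it. Of 14 alveolar type 2 and epithelial markers 9 passed the count filter, among them *Sftpc*, *Abca3* and *Nkx2-1*, while *Sftpd* had 0 counts and *Sftpa1* had 2 over all libraries. The summed level of these markers was 922 to 1025 CPM (counts relative to the TMM-scaled library size) in the controls and 915 to 974 CPM in the knockdown cells. Of the 9 tested, 3 (*Sftpc*, *Nkx2-1* and *Epcam*) were lower in every knockdown sample than in any control and 3 (*Lpcat1*, *Napsa* and *Cdh1*) were higher, against 10.7% and 14.7% of all genes tested, and none passed edgeR's threshold. *Sftpc* was at 44.1 to 97.3 CPM in the controls and 27.2 to 35.9 CPM in the knockdown cells, and *Lpcat1* at 84.8 to 126 and 129.5 to 135 CPM. The 5 leukocyte and macrophage markers summed to 1.84 to 1.92 CPM in the controls and 2.41 to 2.73 CPM in the knockdown cells, with *Ptprc*, *Adgre1* and *Itgam* at 0. The 5 fibroblast markers summed to 22.5 to 25.6 and 20.2 to 26.7 CPM, and the 3 endothelial markers to at most 0.697 and 0.989 CPM. The part of other cells in the results was not tested.

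The carrier that exports citrate was the silenced member. *Slc25a1* (ENSMUSG00000003528) is a minus-strand gene of chromosome 16 (GRCm38, 17925223 to 17928219) with 6 annotated transcripts. It had 3195, 1949 and 3104 counts in Ctrl shRNA replicates 1, 2 and 3 and 2051, 2113 and 1867 in the knockdown replicates. The count of Ctrl shRNA replicate 2 lay within the knockdown range. After TMM scaling the values were 103, 98.7 and 108 CPM against 68.9, 69.6 and 63.0 CPM, and every knockdown sample was below every control. The mean was 103 ± 4.78 CPM (SD, n = 3) in the controls and 67.2 ± 3.67 CPM (SD, n = 3) in the knockdown cells. The log2 fold change was -0.62 (95% interval -0.81 to -0.43), a change of -35.0%, and edgeR's test gave an adjusted p of 0.104 (quasi-likelihood, Benjamini-Hochberg over 15307 genes). Without Ctrl shRNA replicate 2, *Slc25a1* fell by 0.66 on the log2 scale (95% interval -0.82 to -0.50, adjusted p = 0.00649 from the same edgeR test), and in DESeq2 with all libraries it fell by 0.62 (adjusted p = 5.26e-06). With library sizes left unscaled the log2 fold change was -0.46 (edgeR, adjusted p = 0.660).

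The 250 bases before the RefSeq start sites of *Slc25a1*, *Acly* and *Pcx* are shown, since *Pcx* was among the 5 genes whose pattern over the libraries was nearest to that of *Acly*, and *Slc25a1* went the other way. They are written 5′ to 3′ on the strand of the gene, from RefSeq on GRCm38.p6, at chr16:17928220-17928469 (minus strand), chr11:100528001-100528250 (minus strand) and chr19:4510222-4510471 (plus strand). For *Pcx* this is the outermost of its start sites. Capitals mark every match, on either strand, to the E-box CACGTG, the CCAAT box (CCAAT or ATTGG), the GC box (GGGCGG or CCGCCC) and the sterol regulatory element TCACNCCAC.
Slc25a1: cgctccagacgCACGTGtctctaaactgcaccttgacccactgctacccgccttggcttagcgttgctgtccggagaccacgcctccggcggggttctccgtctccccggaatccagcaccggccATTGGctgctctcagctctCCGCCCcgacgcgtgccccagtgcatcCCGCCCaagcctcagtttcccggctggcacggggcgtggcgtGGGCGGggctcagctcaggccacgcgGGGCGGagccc
Acly: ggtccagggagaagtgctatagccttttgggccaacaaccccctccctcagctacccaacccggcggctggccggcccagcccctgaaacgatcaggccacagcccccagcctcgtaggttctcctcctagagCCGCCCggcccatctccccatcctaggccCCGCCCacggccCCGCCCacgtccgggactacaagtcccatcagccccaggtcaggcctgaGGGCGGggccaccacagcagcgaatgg
Pcx: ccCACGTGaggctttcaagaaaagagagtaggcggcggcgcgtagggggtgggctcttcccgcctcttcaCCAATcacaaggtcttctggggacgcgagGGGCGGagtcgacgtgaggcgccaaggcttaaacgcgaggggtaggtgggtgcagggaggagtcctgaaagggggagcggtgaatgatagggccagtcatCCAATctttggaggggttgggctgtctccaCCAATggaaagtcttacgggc
All 8 genes matched the RefSeq table, with 10 windows in all because *Me1* and *Pcx* have 2 start sites each. The GC box was found in 8 of the 10 windows, against 32.7% of all 32851 windows of the same length, and the CCAAT box in 6, against 33.8%. The E-box was found in the windows of *Slc25a1* and *Pcx* shown above, against 6.02% of all windows. The sterol regulatory element, as spelled here, was in none of the 10 and in 1.05% of all windows, which says only that these letters are not in these stretches. In the *Slc25a1* window 4 GC boxes, 1 CCAAT box and the E-box were found, and in the *Acly* window 4 GC boxes and no other match. No matches overlapped in the 10 windows. These matches are descriptions of the sequence and not binding sites.

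Relative to length, *Acly* and *Mdh1* were the most abundant members and *Acss1* the least. The authors' FPKM values, which divide counts by gene length and by their own library size, allow levels to be compared between genes. In the controls *Acly* stood at 80.6 ± 7.15 FPKM, *Slc25a1* at 47.9 ± 2.60, *Cs* at 42.5 ± 3.65, *Me1* at 39.7 ± 1.32, *Pcx* at 8.04 ± 0.812 and *Acss2* at 1.18 ± 0.0184 FPKM (SD, n = 3 each). The values of *Mdh1* were 58.0 and 63.5 FPKM in Ctrl shRNA replicates 1 and 3 and 269 FPKM in replicate 2, so that it exceeded *Acly* in that library alone. Among neighbours in this order, *Cs* and *Me1* overlapped in the controls (39.1 to 46.4 against 38.2 to 40.8 FPKM), as did *Slc25a1* (45.2 to 50.4 FPKM) and *Cs*.

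In every control library *Slc25a1* ranked 3 among the 8 genes, above *Cs* and *Me1*, and in every knockdown library it ranked 5, below both. In the knockdown cells the levels were 95.04 ± 2.44 FPKM for *Acly*, 57.0 ± 2.67 for *Mdh1*, 52.2 ± 3.84 for *Cs*, 48.7 ± 4.39 for *Me1*, 31.1 ± 1.68 for *Slc25a1*, 10.03 ± 0.378 for *Pcx* and 1.06 ± 0.0101 for *Acss2* (SD, n = 3 each). There *Cs* overlapped with *Mdh1* and with *Me1*, while *Slc25a1* was separate from its neighbours.

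**Figure D1:**
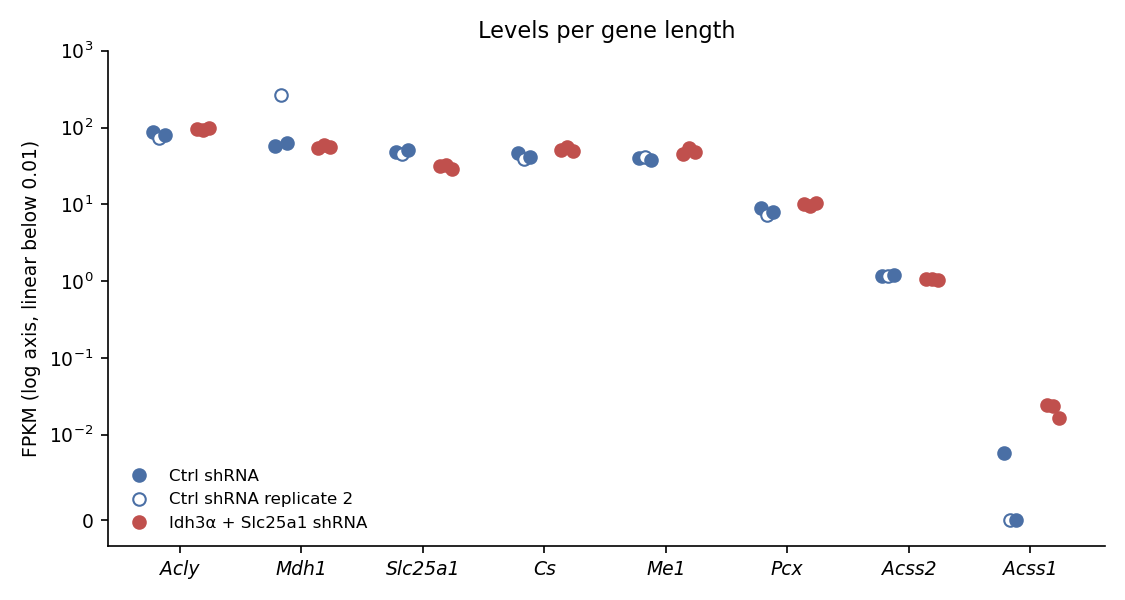
FPKM (reads per gene length and library size, log axis that is linear below 0.01) of the 8 genes in each Ctrl shRNA library (blue, replicate 2 open) and each knockdown library (red). *Slc25a1* lies at 45.2 to 50.4 in the controls and at 29.2 to 32.2 in the knockdown cells, *Mdh1* in Ctrl shRNA replicate 2 lies at 269, and *Acss1* is at or near 0 throughout.

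Of the 8 genes, 7 passed the count filter and 1, *Acss1*, did not. With all 6 libraries none was higher and none was lower at an adjusted p under 0.05 in edgeR's test, where 0.0588% of all genes tested were called higher and 0.00653% lower. At an unadjusted p under 0.05, 3 of the 7 (*Cs*, *Me1* and *Pcx*) were higher and 1 (*Slc25a1*) was lower, against 7.47% and 6.65% of all genes, and without Ctrl shRNA replicate 2 these were 4 (with *Acly*) and 1, against 9.54% and 10.3%. DESeq2 called 0 members higher and 1 lower, *Slc25a1* (background 1.69% and 1.12%), as did edgeR without Ctrl shRNA replicate 2 (1.11% and 0.675%). In 4 members, *Acly*, *Cs*, *Me1* and *Pcx*, every knockdown sample was above every control, which held for 14.7% of the genes tested. In 2 members, *Slc25a1* and *Acss2*, every knockdown sample was below every control in CPM, which held for 10.7%. Without Ctrl shRNA replicate 2 the same counts of 4 and 2 stood beside 20.3% and 17.3% of the genes tested. The median log2 fold change of the 7 was 0.24 with all libraries and 0.18 without Ctrl shRNA replicate 2, against -0.01 and -0.02 over all genes tested.

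**Figure D2:**
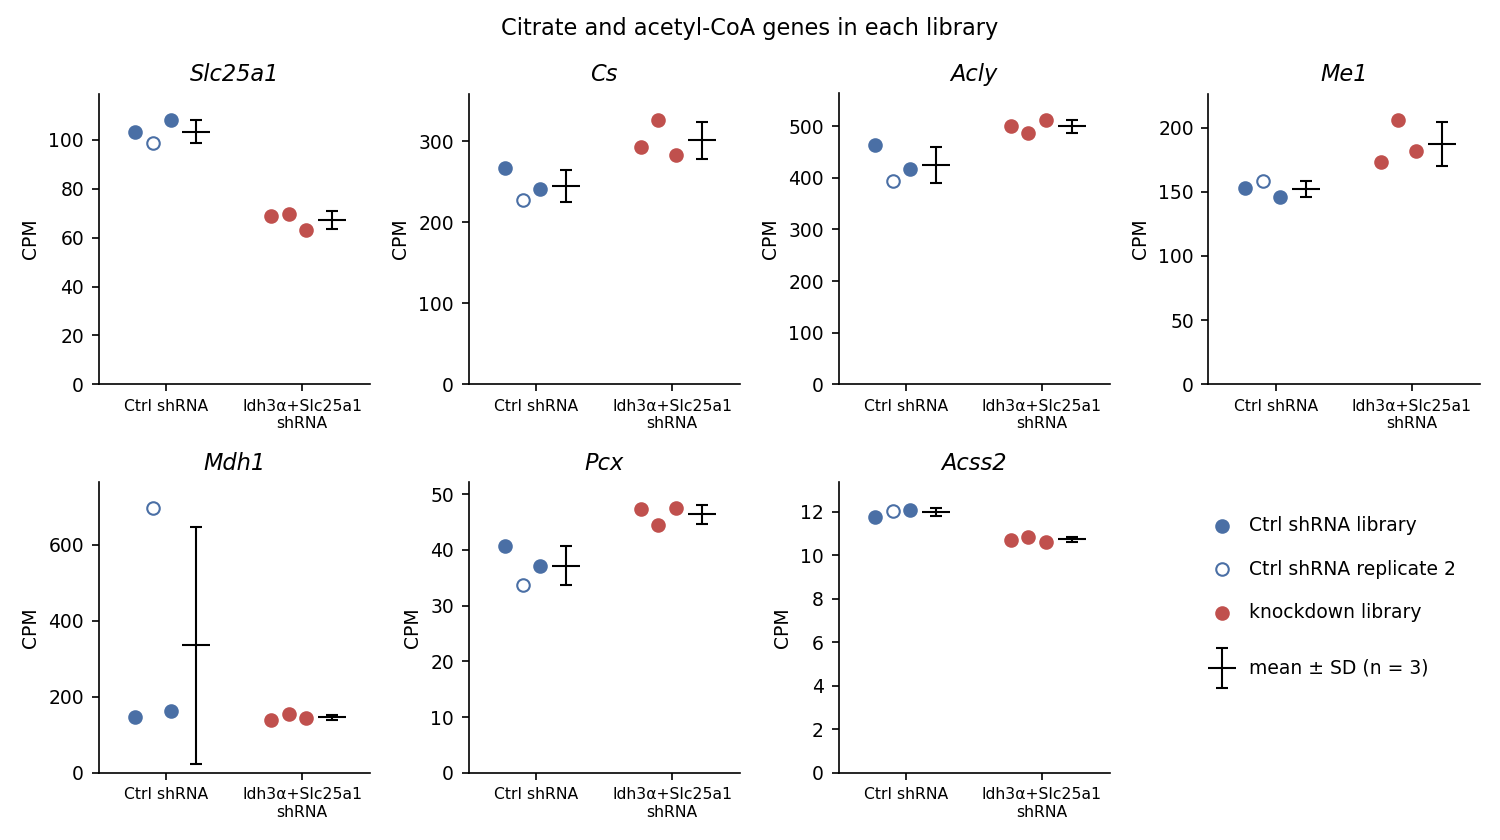
CPM (counts relative to TMM-scaled library size, each axis from 0) of the 7 genes that passed the count filter in each library, with the mean ± SD of each group (n = 3). The knockdown samples lie below the controls for *Slc25a1* and *Acss2* and above them for *Cs*, *Acly*, *Me1* and *Pcx*, and for *Mdh1* the control SD of 312 CPM comes with 695 CPM in Ctrl shRNA replicate 2 (open circle).

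Citrate synthesis was represented by *Cs* and *Pcx*. *Cs* (ENSMUSG00000005683, chromosome 10 of GRCm38, 128337734 to 128362479) was read at 266, 228 and 240.5 CPM with Ctrl shRNA, and 293, 326 and 283 CPM with the knockdown. The lowest knockdown value was above the highest control, and the gap was smaller than the SD of either group (19.6 and 22.4 CPM). The log2 fold change was 0.30 (95% interval 0.05 to 0.54, adjusted p = 0.339 from edgeR's test), and 0.24 without Ctrl shRNA replicate 2 (adjusted p = 0.182 from edgeR's test). *Pcx* (ENSMUSG00000024892, chromosome 19, 4510472 to 4621752) gave 40.8, 33.8 and 37.0 CPM with Ctrl shRNA, and 47.3, 44.4 and 47.4 CPM with the knockdown, again without overlap. Its log2 fold change was 0.32 (95% interval 0.09 to 0.54, adjusted p = 0.315 from edgeR's test), and 0.24 without Ctrl shRNA replicate 2 (95% interval 0.06 to 0.43, adjusted p = 0.161). Neither gene passed the threshold in these tests. In limma with sample quality weights, a fit that gives less weight to libraries that scatter more, both did (adjusted p = 0.0258 for *Cs* and 0.0167 for *Pcx*), as did *Acly* and *Me1*. That fit called 8.67% of all genes higher and 6.34% lower.

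In the cytosol, *Acly* takes over the citrate that CIC exports. *Acly* (ENSMUSG00000020917, chromosome 11, 100476353 to 100528000) had 7786 to 15191 counts per library. Its 3 control values were 463, 394 and 416 CPM, and its knockdown values were 501, 487 and 512 CPM. The 3 knockdown samples lay close together above all controls, of which replicate 2 was the lowest. The log2 fold change was 0.24 (95% interval -0.00036 to 0.47, adjusted p = 0.354 from edgeR's test) with all libraries, and 0.18 (0.01 to 0.34, adjusted p = 0.234) without Ctrl shRNA replicate 2.

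The malate arm held the member with the largest difference between group means and the member whose difference moved most with the choice of libraries, and these were the same gene. *Mdh1* (ENSMUSG00000020321, chromosome 11, 21556787 to 21572367) had 4580, 13736 and 4640 counts in the controls and 4163, 4657 and 4287 in the knockdown replicates. In CPM these were 148, 695 and 162 against 139.9, 153 and 145. Replicate 2 alone was high, at 4.49 times the mean of the other 2 controls, and those 2 overlapped with the knockdown samples. The log2 fold change was -1.20 (95% interval -2.68 to 0.29, adjusted p = 0.383 from edgeR's test) with all libraries and -0.09 (-0.26 to 0.07, adjusted p = 0.504) without that replicate. The deviation of *Mdh1* in that library, 2.17 on the log2 CPM scale from the mean of the other 2 controls, was higher than that of 96.4% of the genes tested. The deviations of the other 6 tested members ran from -0.20 to 0.08. Across all 15307 genes, which are not independent of each other, this deviation had a Spearman rho of -0.23 with gene length. *Mdh1* shares 52 exonic bases with *Wdpcp* on the opposite strand, which had 76 to 162 counts per library.

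*Me1* (ENSMUSG00000032418, chromosome 9, 86581371 to 86695953), the NADPH-producing malic enzyme, was measured at 153, 158 and 146 CPM with Ctrl shRNA, and 173, 206 and 182 CPM with the knockdown. The controls lay close together, all below the lowest knockdown sample. The log2 fold change was 0.30 (95% interval 0.08 to 0.52, adjusted p = 0.324 from edgeR's test), and 0.32 (0.12 to 0.51, adjusted p = 0.117) without Ctrl shRNA replicate 2. In DESeq2 without that replicate, which called 4.22% of all genes higher and 2.84% lower, *Me1* was the member called higher (log2 fold change 0.32, adjusted p = 0.0141). *Me1* shares 30 exonic bases with *A330041J22Rik* on the opposite strand, which had at most 10 counts in a library.

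**Figure D3:**
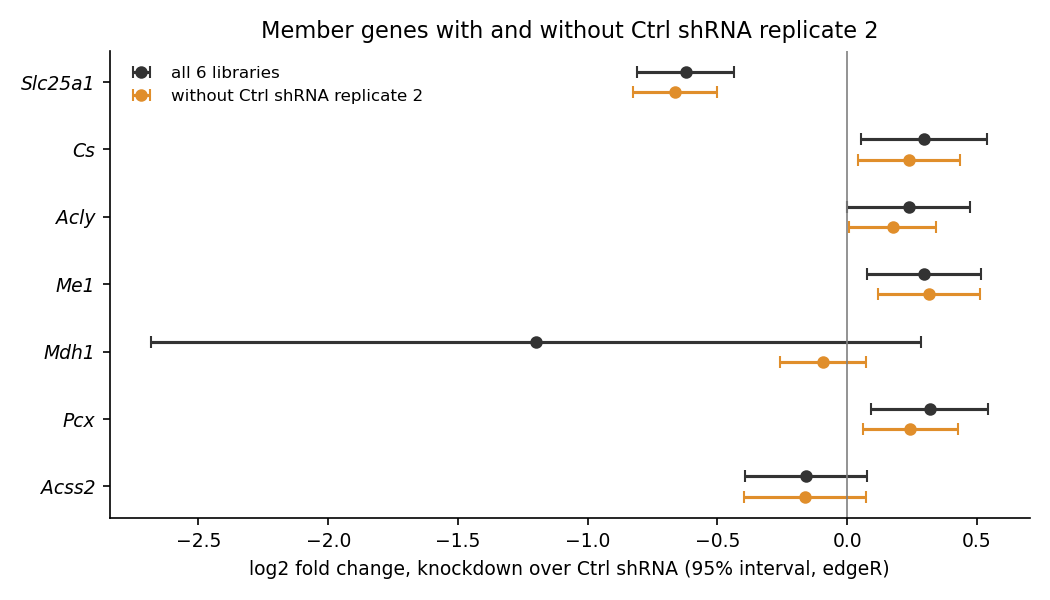
Log2 fold change of knockdown over Ctrl shRNA with its 95% interval from edgeR, with all 6 libraries (black) and without Ctrl shRNA replicate 2 (orange). *Slc25a1* lies at -0.62 and -0.66, *Mdh1* moves from -1.20 to -0.09, and the other members move by less than 0.10.

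The route from acetate was weakly expressed. *Acss2* (ENSMUSG00000027605, chromosome 2, 155517948 to 155585724) had 238 to 364 counts per library, at levels of 11.8, 12.0 and 12.1 CPM with Ctrl shRNA, against 10.7, 10.8 and 10.6 CPM with the knockdown. The groups did not overlap in CPM, and both were narrow. In counts they did overlap, since Ctrl shRNA replicate 2 (238) lay below the knockdown samples (319, 329 and 315). The log2 fold change was -0.16 (95% interval -0.39 to 0.08, adjusted p = 0.429 from edgeR's test) with all libraries and -0.16 (-0.40 to 0.07, adjusted p = 0.413) without Ctrl shRNA replicate 2. With library sizes left unscaled, which moved the median log2 fold change of all genes to 0.16, *Acss2* came to 0.017, still below that median. *Acss2* shares 395 exonic bases with *Gss* on the opposite strand, which had 489 to 1129 counts per library. It also shares 335 with *Acss2os* (at most 3 counts) and 197 with *Ggt7* (7 to 84 counts), likewise on the opposite strand. Whether the counting used strand is not given in the sources used here, so the value of *Acss2* is uncertain.

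*Acss1* (ENSMUSG00000027452, chromosome 2, 150618105 to 150668500), the mitochondrial form, had 1, 0 and 0 counts in the controls and 3, 3 and 2 in the knockdown replicates. All of these are at or under 3 counts, and no fold is given. Its paralog *Acss3* had 0 counts in every library.

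Ratios within a library do not depend on how libraries are scaled, and each member was set against *Slc25a1* as a description. In FPKM, *Cs* stood at 0.966, 0.865 and 0.832 times *Slc25a1* in the controls and at 1.59, 1.75 and 1.69 times in the knockdown replicates. *Acly* stood at 1.84, 1.64 and 1.58 times *Slc25a1* in the controls and at 2.98, 2.87 and 3.34 times in the knockdown replicates. The knockdown ratio was 1.82, 1.89, 1.89, 1.92 and 1.38 times the control ratio for *Acly*, *Cs*, *Me1*, *Pcx* and *Acss2*, and for *Mdh1* the groups overlapped. Without Ctrl shRNA replicate 2 these were 1.79, 1.87, 1.97, 1.88 and 1.42 times, and 1.48 times for *Mdh1*. The denominator is the silenced gene, so the ratio of a gene that did not change is higher as well, by 1.54 times on the authors' FPKM scaling (1.58 without that replicate), and this reference depends on the scaling. The ratios therefore give no evidence on the other genes beyond their own fold changes, and no test of them is given.

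**Figure D4:**
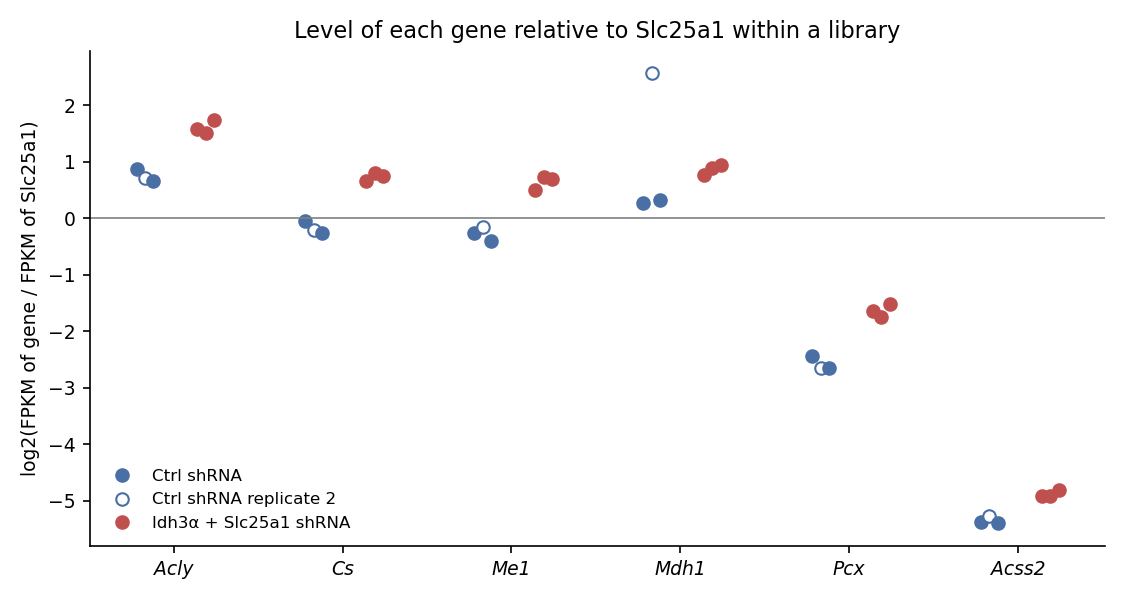
Log2 of the FPKM of each member over the FPKM of *Slc25a1* in the same library, for Ctrl shRNA (blue, replicate 2 open) and knockdown (red) samples. The knockdown samples lie above the controls by 0.46 to 0.94 on the log2 scale for *Acly*, *Cs*, *Me1*, *Pcx* and *Acss2*, where a gene with equal FPKM in both groups would also lie above them, and for *Mdh1* Ctrl shRNA replicate 2 lies above all other samples at 2.57.

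The genes around these members were read from 6 lists, with 49 genes in all, of which 43 passed the count filter. With all libraries 0 of the 43 were higher and 0 lower in edgeR's test, and 7 and 2 were at an unadjusted p under 0.05 (background 7.47% and 6.65%). Of all 15307 genes tested, 7460 lay above 0 in log2 fold change, beside which the counts above 0 in the lists are to be read. Without Ctrl shRNA replicate 2, 2 were higher and 2 lower (background 1.11% and 0.675%), and DESeq2 with all libraries called 2 of 41 higher and 2 lower (background 1.69% and 1.12%). The higher genes were *Fasn* and *Elovl6* and the lower genes *Idh3a* and *Pck2*.

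*Idh3a*, the other silenced gene, encodes a subunit of the mitochondrial enzyme that oxidizes isocitrate, and every control (79.8, 137 and 93.0 CPM) exceeded every knockdown sample (58.5, 57.9 and 55.5 CPM). Its log2 fold change was -0.85 with all libraries (adjusted p = 0.254 from edgeR's test), and without Ctrl shRNA replicate 2, its highest control, it fell by 0.60 (adjusted p = 0.0142).

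Downstream of *Acly*, the list of cytosolic acetyl-CoA use held 9 tested genes, of which 7 were above 0 in log2 fold change, and its median was 0.18 (0.10 without Ctrl shRNA replicate 2). *Fasn*, the fatty acid synthase that builds palmitate from acetyl-CoA and malonyl-CoA, had control values of 671, 578 and 591 CPM and knockdown values of 845, 991 and 837 CPM, without overlap. It rose by 0.49 on the log2 scale without Ctrl shRNA replicate 2 (adjusted p = 0.0488 from edgeR's test) and by 0.54 in DESeq2 with all libraries (adjusted p = 0.00913), while edgeR with all libraries gave an adjusted p of 0.245. *Elovl6*, which lengthens palmitate, had control values of 59.1, 46.0 and 59.9 CPM and knockdown values of 83.0, 80.5 and 85.7 CPM. It rose by 0.47 without Ctrl shRNA replicate 2 (adjusted p = 0.0160 from edgeR's test) and by 0.59 in DESeq2 (adjusted p = 0.0154). For *Elovl6*, edgeR with all libraries gave an adjusted p of 0.207. With all libraries both log2 fold changes (0.54 and 0.60 in edgeR) were above those of *Acly*, *Cs*, *Me1* and *Pcx*, a difference that was not tested.

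In the list of malate, oxaloacetate and aspartate shuttles, 7 of 10 tested genes lay above 0 in log2 fold change and the median was 0.08. *Pck2*, the mitochondrial enzyme that turns oxaloacetate into phosphoenolpyruvate, was lower in each knockdown sample (72.2, 65.7 and 62.0 CPM) than in any control (94.4, 81.9 and 97.2 CPM). It fell by 0.53 on the log2 scale without Ctrl shRNA replicate 2 (adjusted p = 0.0174 from edgeR's test). With all libraries it fell by 0.45, with an adjusted p of 0.245 in edgeR and 0.0481 in DESeq2. The mitochondrial paralogs of the malate enzymes did not pass the threshold. *Mdh2* gave 296, 516 and 287 CPM with Ctrl shRNA, against 325, 345 and 303 CPM with the knockdown, so that Ctrl shRNA replicate 2 was again the highest. Its log2 fold change turned from -0.17 with all libraries to 0.15 without that replicate (adjusted p = 0.320 in the latter from edgeR's test), where both remaining controls lay below the knockdown samples. *Me2* gave 76.1, 80.1 and 78.8 against 82.9, 80.3 and 85.9 CPM, with a log2 fold change of 0.08 (adjusted p = 0.529 from edgeR's test).

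No gene passed in the other 3 lists in edgeR's test with or without Ctrl shRNA replicate 2 or in DESeq2. Of mitochondrial pyruvate entry and pyruvate dehydrogenase, 0 of 7 tested genes lay above 0 in log2 fold change with all libraries and 1 without that replicate, and the median moved from -0.35 to -0.09. Of the other acetyl-CoA and citrate transport genes 2 of 7 were tested. Of the 8 transcriptional regulators of lipogenic genes 5 lay above 0 in log2 fold change, and the median was 0.07.

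**Figure D5:**
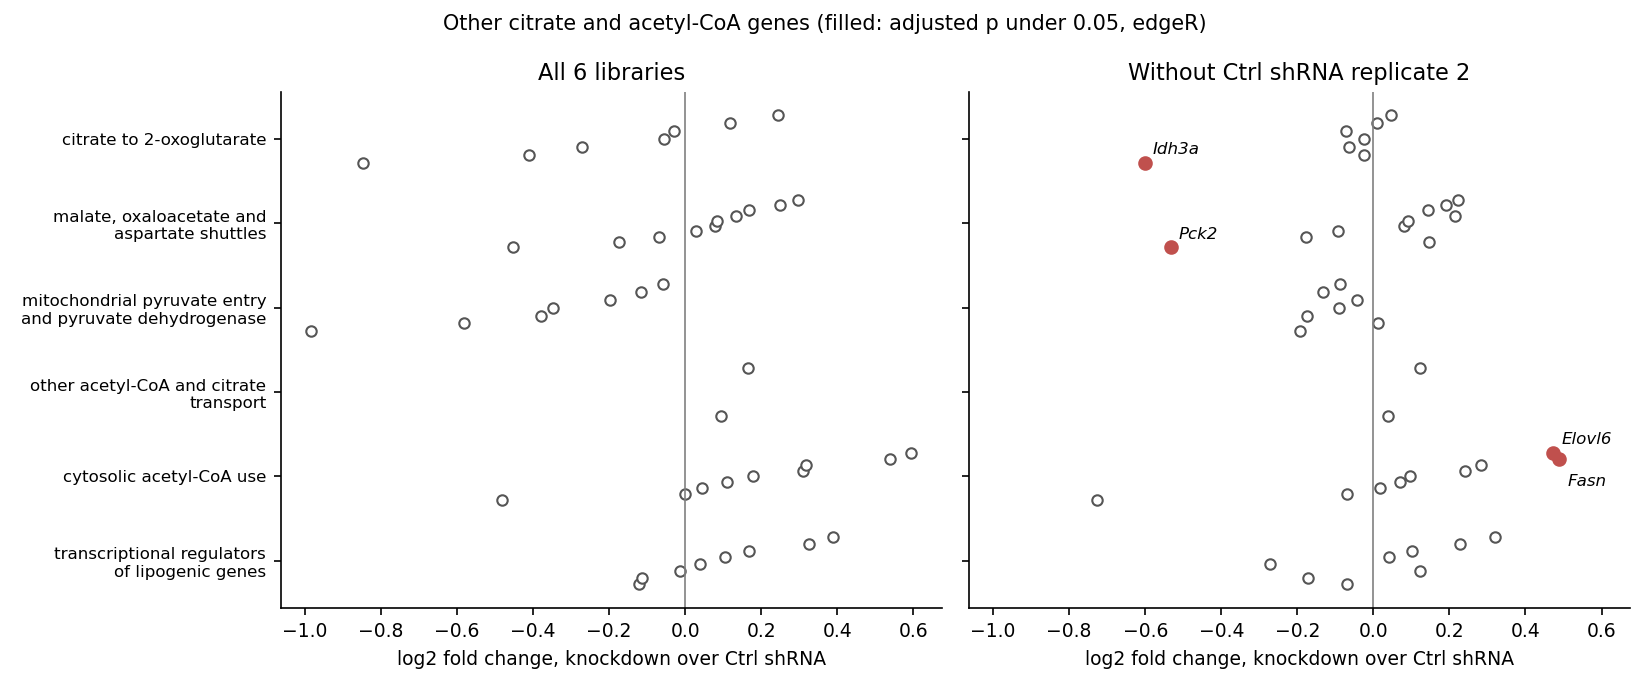
Log2 fold change of the 43 tested genes of the 6 lists from edgeR, with all libraries (left) and without Ctrl shRNA replicate 2 (right), 1 point per gene and filled where the adjusted p was under 0.05. No point is filled on the left, and *Idh3a*, *Pck2*, *Elovl6* and *Fasn* are filled on the right, at -0.60, -0.53, 0.47 and 0.49.

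The 5 tested genes with the highest Pearson r of log2 CPM with *Slc25a1* over the 6 libraries were *Tsc22d1*, *Tpgs1*, *Fam214a*, *Aifm3* and *Fkbp14* (r = 0.990 for each). For *Tsc22d1* the control values were 237, 244 and 257 CPM and the knockdown values 193, 196 and 183 CPM. For *Acly* they were *Zfp275* (r = 0.998), *Ipo5* (0.997), *Flna* (0.996), *Plxna1* (0.995) and *Pcx* (0.993). For *Zfp275* the control values were 54.8, 39.6 and 45.2 CPM and the knockdown values 61.6, 59.5 and 65.1 CPM. These values describe likeness over 6 libraries that share the same 2 groups and scaling factors, and they were picked as the highest among all genes tested.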

How the data were processed

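RNA was compared between 3 Ctrl shRNA samples and 3 samples given both shRNAs, all of MLE12 cells, with groups and replicate numbers from the labels. The files deposited by the authors hold read counts per Ensembl gene, without normalization, and FPKM values. The library size worked back from counts, gene lengths and FPKM was 0.716 times the total count in Ctrl shRNA replicate 2. In the others it was 1.04 to 1.08 times. These factors lay close to the TMM factors, so the FPKM are not an independent check of the scaling. The submitters' processing notes name HISAT2 2.0.5, StringTie 1.3.3b, featureCounts 1.5.0-p3 and mm10 without their roles, and the labels name a Trinity assembly. Of 54495 genes shared with GENCODE M21, 98.3% had identical GRCm38 positions.

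Counts were filtered with filterByExpr, TMM-scaled and tested with the quasi-likelihood test of edgeR 4.0.16 in R 4.3.3. Standard errors and 95% intervals were taken from its F statistic, and calls were made at an adjusted p under 0.05 (Benjamini-Hochberg, all genes tested). Alternatives used DESeq2 1.42.0, limma 3.58.1 on log2(FPKM + 1) or log2(FPKM + 0.1), voom with sample quality weights, other scalings and filters, the replicate number as a block and each library left out. The FPKM fits kept genes with at least 1 FPKM in 3 samples, or all genes. On simulated counts with the spread of all 6 libraries, edgeR and limma called none of the changed genes, while DESeq2 called most of them with more false calls than its threshold allows. With Ctrl shRNA replicate 2 left out of the simulation, all 3 recovered most, also with more false calls than the threshold allows. The simulation with all libraries gave each the same spread, whereas in these data Ctrl shRNA replicate 2 stood apart. The changes set were larger than those of most members, so these outcomes do not carry over to the calls made here. Total counts were 27273502 to 28535653 per library. Ratios to *Slc25a1* are given as a description, since an exact permutation test of them (scipy 1.17.1) registers the silencing itself. Named were all members, listed genes past the threshold with or without Ctrl shRNA replicate 2, *Idh3a*, the paralogs *Mdh2*, *Me2* and *Acss3*, and the 5 genes most like *Slc25a1* and *Acly*. Outside this rule are the markers, genes sharing exons with a member, and *Mpc1* and *Mpc2*, chosen after their values were seen. Members and lists were chosen with earlier results of these data known.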

Additional observations from a re-analysis of the deposited data

How the results depend on the processing

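With all libraries, edgeR called 0 members higher and 0 lower (background 0.0588% and 0.00653%). Voom with sample quality weights called 4 higher and 1 lower (8.67% and 6.34%), and DESeq2 0 and 1 (1.69% and 1.12%). DESeq2 without Ctrl shRNA replicate 2 called 1 and 1 (4.22% and 2.84%). With each library left out in turn, edgeR called 0 to 0 members higher and 0 to 1 lower. The 1 was *Slc25a1* without Ctrl shRNA replicate 2, a fit that called 1.11% of all genes higher and 0.675% lower. The other leave-one-out fits called at most 1 gene each, so 0 members there says little about the members. *Slc25a1* passed the threshold in DESeq2 (-0.62), with quality weights (-0.68), without Ctrl shRNA replicate 2 (-0.66) and in DESeq2 without it (-0.66). With quality weights *Acly* (0.25), *Cs* (0.27), *Me1* (0.30) and *Pcx* (0.32) passed as well, and *Me1* (0.32) passed in DESeq2 without that replicate. Over the leave-one-out fits the log2 fold change ran from -0.66 to -0.57 for *Slc25a1*, 0.18 to 0.31 for *Acly*, 0.24 to 0.37 for *Cs*, 0.22 to 0.35 for *Me1*, 0.24 to 0.39 for *Pcx*, -0.17 to -0.15 for *Acss2* and -1.55 to -0.09 for *Mdh1*, the -0.09 being that without Ctrl shRNA replicate 2. *Acss2* changed sign to 0.017 with library size only, where the median of all genes was 0.16. The log2 ratio of *Mdh1* to *Slc25a1* turned from -0.19 to 0.57 without Ctrl shRNA replicate 2. In the 6 lists, edgeR without that replicate and DESeq2 each called 2 genes higher and 2 lower, against 0 and 0. The remaining 148 values were unchanged in kind. Among them the fold changes kept their direction and their side of the threshold. The ratios, which were not tested, kept their direction, and the counts of members called stayed at 0.

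The main fit treated the samples as unpaired. Deviations of same-numbered samples from their group means correlated at -0.15, -0.09 and 0.04 across genes, and those of different-numbered samples at -0.04 to 0.15. These values cannot decide whether the replicate numbers pair the samples, since Ctrl shRNA replicate 2 stood apart and shaped the deviations of all controls. With the replicate block, *Slc25a1* had a log2 fold change of -0.62 and an adjusted p of 0.576 in edgeR, *Mdh1* one of -0.78, and 0 genes passed in either direction.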

Other observations

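*Mpc1* and *Mpc2*, which encode the mitochondrial pyruvate carrier that feeds *Pcx* and pyruvate dehydrogenase, were chosen only after looking at their values. *Mpc2* gave 25.1, 83.5 and 26.6 CPM with Ctrl shRNA, against 24.8, 19.6 and 23.7 CPM with the knockdown. *Mpc1* gave 4.07, 12.4 and 5.51 CPM with Ctrl shRNA, against 4.67, 4.88 and 5.02 CPM with the knockdown. As with *Mdh1*, Ctrl shRNA replicate 2 alone was high. The log2 fold changes of *Mpc2* and *Mpc1* were -0.98 and -0.58 with all libraries and -0.19 and 0.01 without that replicate, with adjusted p of 0.376 and 0.485 and of 0.371 and 0.975 from edgeR's test.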
